A study of Drosophila melanogaster with 18 samples.

Results

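The genes ninaD, santa-maria and ninaB handle dietary carotenoids in Drosophila melanogaster, and their transcripts were followed in RNA-seq libraries of whole third-instar larvae. They were taken from the count table by gene symbol and are 3 of its 17562 genes. The genes were selected on measured values of these same libraries, the change of each deletion strain against the wild type, so those changes are given as a description and without a p. The study compared 5 strains, each lacking a single U1 snRNA gene, with the wild type. U1 snRNA is the RNA of the splicing particle that recognises 5′ splice sites, and fruit flies carry a small set of U1 genes. The strains 21D.del, 82Eb.del, 95Ca.del, 95Cb.del and 95Cc.del lack the U1 gene in their name, and the reference is WT, the w1118 isogenic strain BDSC 5905. Each of the 6 groups had 3 libraries of total RNA from which rRNA had been removed. The labels give no treatment.

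The deletions were made with paired guide RNAs in embryos of a nanos-Cas9 strain, which makes Cas9 in the germline, and the lines were then crossed with WT for several generations. Each deletion is represented by a single strain, so the deletion and anything else that its line carries cannot be told apart. The labels do not say that the replicates came from separate cultures, so the p-values below measure only the spread between these samples, which may be technical. RNA came from whole animals. A lower transcript level can therefore reflect fewer cells of the expressing type or less RNA per cell, and these cannot be told apart.

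Animals cannot make carotenoids and take them from food. In Drosophila, ninaD and santa-maria encode class B scavenger receptors, membrane proteins related to mammalian CD36 that move carotenoids and other lipids into cells. ninaD is known for absorption in the midgut, and santa-maria for uptake in cells outside the retina, among them neurons and glia. ninaB encodes the oxygenase that cleaves carotenoids to retinoids, from which the chromophore of rhodopsin is made. Mutants of each of these genes were found through visual defects.

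Library totals lay between 11919121 and 21776613 counts, so 3 counts, the upper limit that a count of 0 allows, correspond to 0.138 to 0.252 CPM, where CPM are counts scaled to a library total of 1000000. In each group 1 library stood apart on the first principal component, which held 52.1% of the variance of the 500 most variable genes. It was replicate 2 of 21D.del, 82Eb.del and WT and replicate 1 of 95Ca.del, 95Cb.del and 95Cc.del, with scores of 10.16 to 73.49, against -25.68 to -11.09 in the others. Reads of U1 genes were scarce, 0 to 25 per gene and group. The deleted gene had 0 counts in 21D.del, 82Eb.del, 95Cb.del and 95Cc.del, whereas 95Ca had 5 counts in the libraries labelled 95Ca.del, all of them in replicate 2. The U1 genes are near-identical and share reads, so this check of the labels is weak. Markers of midgut, fat body, muscle, neurons and salivary gland were all detected in every group.

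The intestinal receptor ninaD was far lower in every deletion strain than in WT. The gene (FBgn0002939) lies at 18081628 to 18083608 on the plus strand of chromosome 2L in dm6, with 2 annotated transcripts of 5 and 3 exons. Its level in replicates 1, 2 and 3 was 17.95, 41.66 and 15.38 CPM in 21D.del. It was 2.90, 4.14 and 3.00 CPM in 82Eb.del. The 95Ca.del libraries had 3.18, 1.73 and 1.84 CPM, the group with the lowest mean. In 95Cb.del the level was 4.36, 2.51 and 2.77 CPM. The 95Cc.del libraries gave 10.55, 8.49 and 10.02 CPM. WT larvae had 126.4, 226.6 and 121.5 CPM. All 15 deletion libraries were thus below all 3 WT libraries, and the highest of them was the 21D.del library that stood apart. How many of all genes had libraries likewise apart was not counted, here or in the comparisons below.

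As group means, ninaD averaged 25 ± 14.5 CPM in 21D.del, 3.35 ± 0.687 CPM in 82Eb.del, 2.25 ± 0.81 CPM in 95Ca.del, 3.21 ± 1.0 CPM in 95Cb.del and 9.69 ± 1.07 CPM in 95Cc.del, and 158.2 ± 59.3 CPM in WT (SD, n = 3 each). These means were 15.8%, 2.12%, 1.42%, 2.03% and 6.12% of that in WT. The log2 fold change against WT was -2.61 (SE 0.37) in 21D.del, -5.50 (SE 0.22) in 82Eb.del, -6.04 (SE 0.29) in 95Ca.del, -5.65 (SE 0.29) in 95Cb.del and -3.96 (SE 0.20) in 95Cc.del. In each strain the change passed the thresholds used for differentially expressed genes, an adjusted p under 0.05 by edgeR together with a difference of more than 2-fold. In 21D.del the call rested on single libraries and on the scaling. It was lost without 21D.del replicate 1 or 3 (log2 fold changes -2.39 and -2.43), without WT replicate 1, 2 or 3 (-2.70, -2.41 and -2.72) and with libraries scaled by their totals alone (-2.66). In these fits, in the same order, 0, 38, 22, 26, 24 and 86 of all tested genes were lower past the thresholds, in place of 111. Losses of calls were thus not particular to ninaD. The share of tested genes past these thresholds and lower was 0.892% in 21D.del, 3.8% in 82Eb.del, 2.51% in 95Ca.del, 5.96% in 95Cb.del and 2.73% in 95Cc.del. Of the 12145 genes tested in all 5 comparisons, 75 genes (0.618%) were lower past the thresholds in all of them, and ninaD was in that set. The 5 comparisons share the WT libraries. By a correlation check, replicate numbers paired the libraries of 21D.del and 82Eb.del with those of WT. In these groups replicate 2 is the library that stood apart, so the check cannot tell pairing from that shared number. With this number as a block 372 genes in place of 111 were lower in 21D.del and 876 in place of 472 in 82Eb.del, ninaD among them each time.

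**Figure D1:**
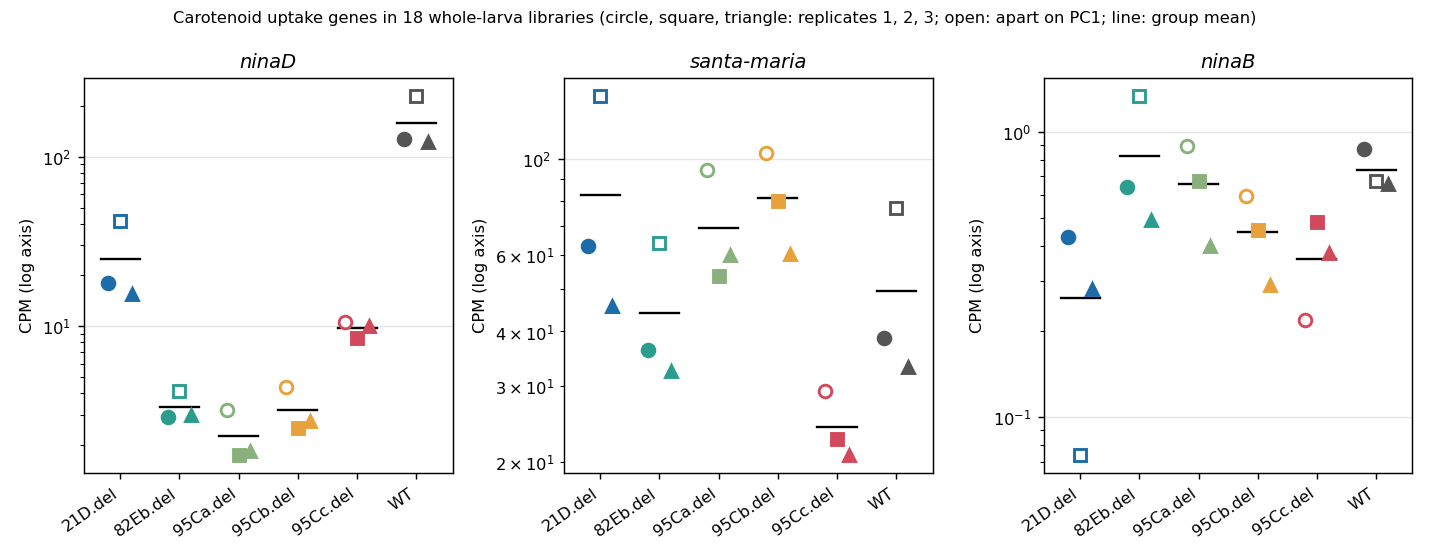
CPM (log axes) of ninaD, santa-maria and ninaB in each of 18 libraries. Circles, squares and triangles are replicates 1, 2 and 3, open symbols are the 6 libraries that stood apart, and lines are group means. For ninaD every deletion library lies below the WT libraries of 121.5 to 226.6 CPM, santa-maria overlaps WT in all strains but 95Cc.del, and ninaB stays at or below 1.33 CPM.

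santa-maria, the receptor for uptake outside the retina, did not follow ninaD. The gene (FBgn0025697) lies at 7445355 to 7451244 on the minus strand of chromosome 2L. It had 63.10, 139.3 and 45.80 CPM in 21D.del. In 82Eb.del it had 36.24, 64.04 and 32.36 CPM. The values were 94.05, 53.60 and 60.15 CPM in 95Ca.del. The means of 21D.del and 95Ca.del were above and that of 82Eb.del below the mean of WT, and in each the libraries overlapped those of WT. In 95Cb.del the level was 103.3, 79.96 and 60.43 CPM. In 95Cc.del it was 29.11, 22.62 and 20.73 CPM. WT larvae had 38.67, 77.19 and 33.16 CPM. Only the 95Cc.del libraries fell wholly outside the WT range, on its low side.

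The log2 fold change of santa-maria against WT was 0.79 (SE 0.40) in 21D.del, -0.11 (SE 0.28) in 82Eb.del, 0.58 (SE 0.27) in 95Ca.del, 0.69 (SE 0.27) in 95Cb.del and -0.96 (SE 0.24) in 95Cc.del. It passed the thresholds in 0 of 5 strains with edgeR and in 0 of 5 with DESeq2. The shares of tested genes past the thresholds and higher were 0.121% in 21D.del, 0.733% in 82Eb.del, 0.241% in 95Ca.del, 1.43% in 95Cb.del and 2.07% in 95Cc.del. santa-maria shares exonic sequence with CG5973 on the opposite strand, and the strand setting of the counting is not given in the sources used here, so reads of the overlap may be misassigned. CG5973 had 32.9 to 51.9 CPM as means of the deletion strains, against 70.3 ± 28.4 CPM in WT, and was lower past the thresholds in 95Cb.del (log2 fold change -1.12). Its part in the santa-maria values was not tested.

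ninaB, the carotenoid-cleaving oxygenase, was barely detected in larvae. The gene (FBgn0002937) lies at 13700565 to 13703164 on the plus strand of chromosome 3R and has 1 annotated transcript. Its raw counts in replicates 1, 2 and 3 were 9, 1 and 5 in 21D.del. They were 13, 19 and 9 in 82Eb.del, and 18, 14 and 5 in 95Ca.del. They were 12, 9 and 4 in 95Cb.del, and 4, 8 and 6 in 95Cc.del. WT libraries had 19, 8 and 11 counts. No library exceeded 1.33 CPM. The sums over 3 libraries were, relative to the summed totals, 0.287 CPM (95% exact Poisson interval 0.161 to 0.473) in 21D.del, 0.775 (0.556 to 1.05) in 82Eb.del, 0.692 (0.487 to 0.953) in 95Ca.del, 0.465 (0.301 to 0.686) in 95Cb.del and 0.355 (0.211 to 0.562) in 95Cc.del, and 0.753 (0.533 to 1.03) in WT. These intervals, like all floors, cover counting error only.

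The log2 fold change of ninaB against WT was -1.33 (SE 0.60) in 21D.del, 0.10 (SE 0.41) in 82Eb.del, -0.10 (SE 0.41) in 95Ca.del, -0.78 (SE 0.38) in 95Cb.del and -1.03 (SE 0.42) in 95Cc.del. The 21D.del, 95Cb.del and 95Cc.del libraries did not overlap those of WT in CPM, but the share of all genes likewise apart was not counted. The Poisson intervals of 95Cb.del and 95Cc.del overlapped that of WT, whereas the interval of 21D.del did not. In every pair of deletion strains with 21D.del or 95Cc.del, ninaB failed the filter on low counts. It thus entered the fits of 21D.del and 95Cc.del against WT through the WT libraries, where its mean was higher. These non-overlaps only describe the values on which the gene was chosen. The change passed the thresholds in 0 of 5 strains with edgeR and in 0 of 5 with DESeq2. Its exons overlap those of Adgf-D and f-cup on the opposite strand, which had 32.6 to 52.0 CPM and 22.9 to 34.3 CPM as group means, so that a part of its few reads may belong to them.

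The level of ninaD also varied among the deletion strains. Pairs of strains were compared without WT, but their libraries are among those on which the genes were chosen, so the values of the 3 genes are given as a description, with no p. Among the 10 pairs of strains, ninaD passed the thresholds in 5 by edgeR and in 7 by DESeq2. The pairs added by DESeq2 were 21D.del over 95Ca.del and 21D.del over 95Cc.del. There DESeq2 called 89 and 325 of all genes higher and 31 and 365 lower, where edgeR called 1 and 104 higher and 0 and 93 lower. Strain means from high to low ran 21D.del, 95Cc.del, 82Eb.del, 95Cb.del and 95Ca.del. 82Eb.del was lower than 95Cc.del by a log2 fold change of -1.5 (SE 0.17). 95Ca.del was lower than 95Cc.del by -2.04 (SE 0.23). 95Cb.del was lower than 95Cc.del by -1.67 (SE 0.21). All 3 libraries of 82Eb.del, 95Ca.del and 95Cb.del were below all 3 of 95Cc.del. The shares of tested genes past the thresholds in either direction were 9.15%, 6.57% and 17.2% in these pairs, so many other genes also separated 95Cc.del from the other strains.

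ninaD was highest in 21D.del, where the libraries were also the most spread. The change was 2.93 (SE 0.38) for 21D.del over 82Eb.del and 3.01 (SE 0.41) for 21D.del over 95Cb.del, both past the thresholds. For 21D.del over 95Ca.del it was 3.48 (SE 0.42) and for 21D.del over 95Cc.del 1.42 (SE 0.36), which did not pass. The share of genes past the thresholds was 0.478% for 21D.del over 82Eb.del, 0.492% over 95Cb.del, 0.00808% over 95Ca.del and 1.58% over 95Cc.del. The calls of ninaD over 82Eb.del and 95Cb.del depended on single libraries. Both were lost without 21D.del replicate 1 or 3. Leaving out any single 82Eb.del or 95Cb.del library also ended the call of that pair, at log2 fold changes of 2.85 to 3.24. For 21D.del over 82Eb.del these fits had 0 calls over all genes, so the loss was not particular to ninaD. For 21D.del over 95Cb.del, 2 and 5 genes passed without 21D.del replicate 1 and 3, and 0 without any single 95Cb.del library. Without the 6 libraries that stood apart, 21D.del was higher than 82Eb.del, 95Ca.del and 95Cb.del by 2.52, 3.22 and 2.81, each past the thresholds. Over all genes 254, 36 and 225 were then higher in 21D.del and 61, 12 and 65 lower.

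The 3 strains with the least ninaD did not pass the thresholds against each other. The log2 fold change was 0.55 for 82Eb.del over 95Ca.del (95% interval -0.07 to 1.16), 0.14 for 82Eb.del over 95Cb.del (-0.44 to 0.71) and -0.39 for 95Ca.del over 95Cb.del (-1.08 to 0.30). The intervals reach to 1.16 and -1.08, so differences of that size between these strains remain possible. The shares of genes past the thresholds in these pairs were 0.333%, 0.972% and 0.564%.

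For santa-maria, the strain that differed from others was 95Cc.del. 95Ca.del was higher than 95Cc.del by a log2 fold change of 1.58 (SE 0.18) and 95Cb.del was higher than 95Cc.del by 1.67 (SE 0.17). These were the 2 of 10 pairs past the thresholds, against 3 with DESeq2. Of all tested genes 6.57% and 17.2% passed in these pairs by edgeR, so santa-maria was among many genes that separated 95Cc.del. 82Eb.del was above 95Cc.del by 0.89 (SE 0.21), under the fold threshold. For 21D.del over 95Cc.del the value was 1.83 (SE 0.37), which did not pass. Without 21D.del replicate 2, the library that stood apart, it was 1.32 and passed. That fit had 349 higher and 661 lower calls over all genes, in place of 104 and 93. All libraries of the other 4 deletion strains were above the 3 of 95Cc.del, whose 95% intervals of difference from 95Ca.del and 95Cb.del ran from 1.15 to 2.01 and from 1.27 to 2.08. The share of all genes with libraries likewise apart was not counted. Thus 95Cc.del had more ninaD and less santa-maria than 95Ca.del and 95Cb.del. ninaB passed the filter on low counts in 3 of 10 pairs and differed past the thresholds in 0 of them by edgeR and in 0 by DESeq2.

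**Figure D2:**
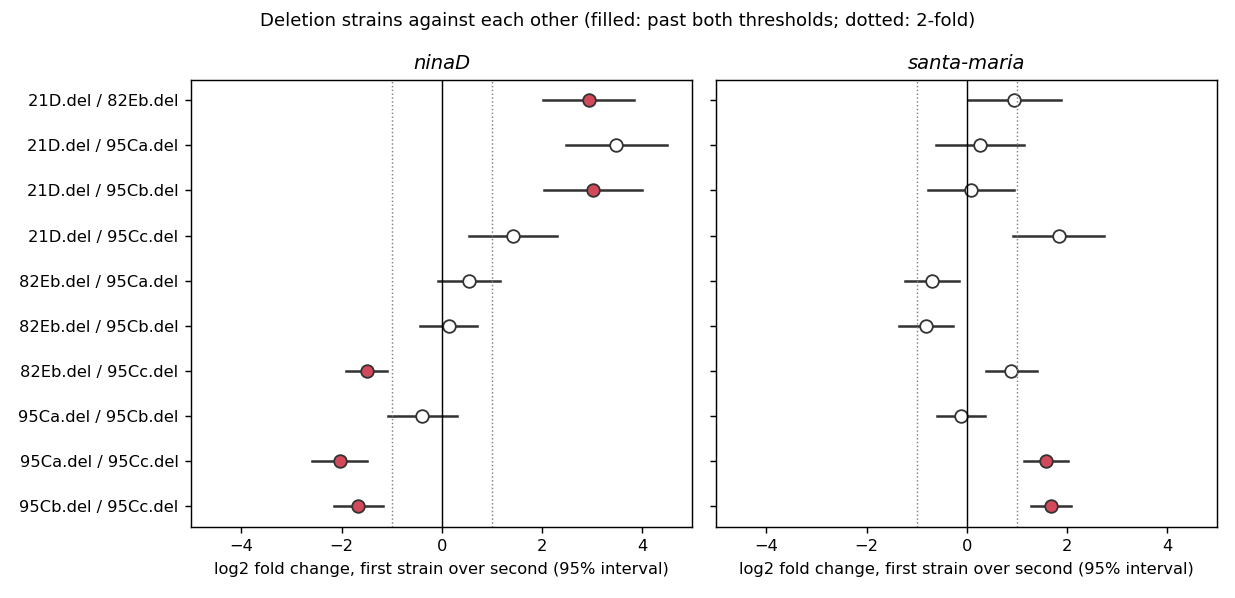
Log2 fold change of ninaD and santa-maria between deletion strains, first strain over second, with 95% intervals from edgeR. Filled points passed both thresholds and dotted lines mark a 2-fold difference. ninaD is filled in 5 of 10 pairs and santa-maria in 2 of 10, both of these against 95Cc.del.

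Both receptors were also compared within each library. Levels were divided by exonic length (1788 bases for ninaD, 5563 for santa-maria) to compare the genes. The ratio of ninaD to santa-maria in CPM per kb was 0.885, 0.931 and 1.04 in 21D.del and 0.249, 0.201 and 0.289 in 82Eb.del. It was 0.105, 0.10 and 0.095 in 95Ca.del and 0.131, 0.0977 and 0.143 in 95Cb.del. It was 1.13, 1.17 and 1.5 in 95Cc.del, and 10.2, 9.13 and 11.4 in WT. Within a group the highest ratio was 1.11 to 1.46 times the lowest, although ninaD alone varied up to 2.71-fold and santa-maria up to 3.04-fold between replicates. ninaD was thus the more abundant receptor in WT on this scale, and the less abundant in 82Eb.del, 95Ca.del and 95Cb.del. The long exonic length of santa-maria comes from a transcript of 5563 bases, and the other transcript has 2302. With the shorter length the mean ratio was 0.395 in 21D.del, 0.102 in 82Eb.del, 0.0414 in 95Ca.del, 0.0513 in 95Cb.del and 0.524 in 95Cc.del, and 4.24 in WT, so that only the order of the genes in 95Cc.del and in 1 library of 21D.del turned.

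**Figure D3:**
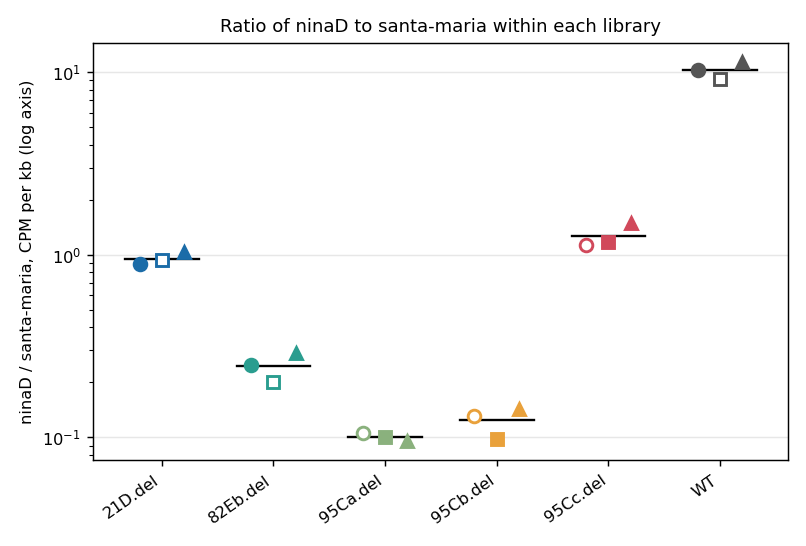
Ratio of ninaD to santa-maria (CPM per kb of exonic length, log axis) in each library, with symbols as in the plot of CPM by library. Open symbols are the libraries that stood apart. Within a group the highest ratio is 1.11 to 1.46 times the lowest, and the WT ratios of 9.13 to 11.4 lie above all deletion libraries.

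In the library of each group that stood apart, both receptors were higher than in its 2 sister libraries. ninaD was 1.14 (95Cc.del) to 2.5 (21D.del) times their mean and santa-maria 1.34 (95Cc.del) to 2.56 (21D.del) times. Amy-p, a secreted midgut amylase, was lower in these same libraries, at 0.00268 (21D.del) to 0.157 (95Cc.del) times the mean of the others in the deletion strains and 0.0157 times in WT. The digestive enzyme genes betaTry and Jon65Aiv, named after their values were seen, were lower as well. betaTry was at 0.0138 to 0.59 times in the deletion strains and 0.0501 times in WT. Jon65Aiv was at 0.00586 to 0.498 times and 0.0372 times. thetaTry, a midgut trypsin, was not lower to this extent, at 0.997 to 1.78 times in the deletion strains and 1.57 times in WT. Of the same enzyme list, Jon99Ci and Mal-A1 had narrow ranges too, of 58.7 to 89.1 and 8.54 to 10.7 CPM in 21D.del and 285 to 471 and 160 to 228 CPM in WT. alphaTry and epsilonTry, named after their values were seen, had wide ranges, of 5.67 to 160 and 9.57 to 491 CPM in 21D.del and 172 to 750 and 107 to 1190 CPM in WT. The part of this library difference in the contrasts was not tested, but without these 6 libraries the ninaD change against WT was -2.85, -5.36, -6.10, -5.66 and -3.79 in 21D.del, 82Eb.del, 95Ca.del, 95Cb.del and 95Cc.del.

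The gene lists used from here on were written with earlier results of these data known. The p-values of list genes therefore describe these libraries and give no independent support. Of 12 other class B scavenger receptor genes, CG31741 was lower than WT in all 5 strains. It lies 648 bases beyond the 3′ end of ninaD on the same strand. It had 6.29, 8.69 and 8.48 CPM in 21D.del, and 3.98, 5.33 and 3.55 CPM in 82Eb.del. The level was 2.24, 2.68 and 1.44 CPM in 95Ca.del, and 6.39, 4.02 and 4.67 CPM in 95Cb.del. It was 1.76, 1.15 and 0.814 CPM in 95Cc.del, and 32.4, 60.2 and 36.1 CPM in WT. All deletion libraries were below all WT libraries. The log2 fold changes were -2.35, -3.26, -4.19, -3.12 and -5.04 in 21D.del, 82Eb.del, 95Ca.del, 95Cb.del and 95Cc.del (adjusted p = 0.0169, 0.000542, 0.000913, 0.0006 and 0.000293, edgeR). In 21D.del the call was lost on leaving out replicate 1 or 3 of 21D.del or any WT library, with adjusted p up to 0.135. Those fits had 0 to 38 lower calls over all genes, in place of 111.

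The pair of neighbours did not keep the same order over the strains. CG31741 was lowest in 95Cc.del, the strain with the second highest ninaD. Between strains, CG31741 was higher in 82Eb.del than in 95Cc.del by 1.82 (adjusted p = 0.00676), in 95Cb.del than in 95Cc.del by 1.93 (adjusted p = 0.00217) and in 21D.del than in 95Cc.del by 2.75 (adjusted p = 0.0247), which were its 3 calls among 10 pairs. The call of 21D.del over 95Cc.del was lost on leaving out 21D.del replicate 1 or 3 or any 95Cc.del library. Those fits had 0 calls over all genes. For 82Eb.del and 95Cb.del over 95Cc.del, ninaD went the other way, as given above. Arr1, a visual arrestin gene 321 bases upstream of ninaD on the same strand, had 1.51 to 3.48 CPM as means of the deletion strains, against 2.43 ± 0.297 CPM in WT, with log2 fold changes of -0.54 to 0.56 and 0 calls in the 5 strains by edgeR. These neighbours, like the genes that overlap santa-maria and ninaB, are described because of their position, after their values were seen.

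**Figure D4:**
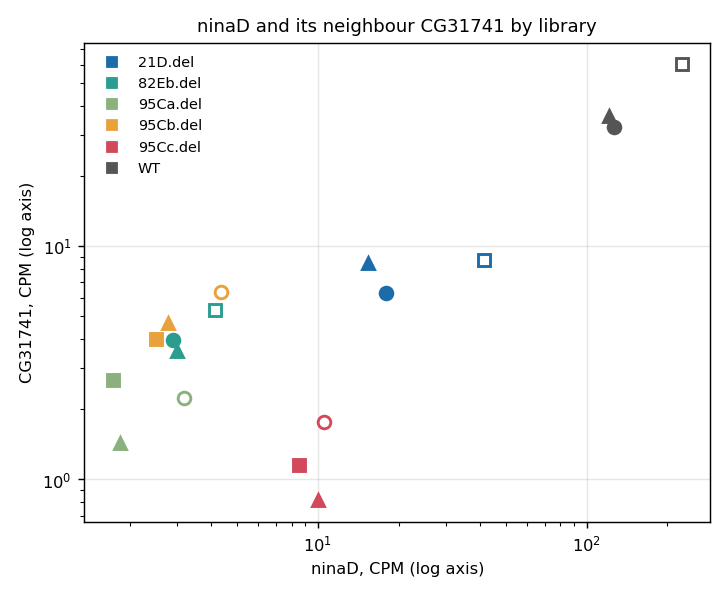
CPM of CG31741 against CPM of ninaD in each library (both axes log), coloured by group, with open symbols for the libraries that stood apart. WT libraries lie at the upper right for both genes, and 95Cc.del libraries lie lowest for CG31741 at 0.814 to 1.76 CPM but not for ninaD.

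Few of the remaining class B receptors passed the thresholds. Over the 12 genes and 5 strains there were 7 lower and 0 higher calls among 60 tests by edgeR, and 7 and 0 by DESeq2, with 18 and 4 at an unadjusted p under 0.05. The edgeR share of all tested genes called lower was 0.892% (21D.del) to 5.96% (95Cb.del), and 2.73% in 95Cc.del. Besides CG31741 the calls were crq, an apoptotic cell receptor of macrophages, and pes, a receptor for the uptake of mycobacteria, both in 95Cc.del (log2 fold changes -1.0 and -1.02, adjusted p = 0.0401 and 0.00754). Both lie at the fold threshold, and both were lower than WT in the other strains too. In 21D.del, 82Eb.del, 95Ca.del and 95Cb.del pes had -0.71, -0.99, -0.86 and -0.88 and crq -0.42, -0.62, -0.9 and -0.68. For pes the adjusted p by edgeR was 0.0155 in 82Eb.del and 0.0376 in 95Cb.del, short of the fold threshold. The crq call was lost without any single library of 95Cc.del or WT and that of pes without 95Cc.del replicate 2 or 3 or WT replicate 2, and without WT replicate 2 the list had 4 lower calls. The median log2 fold change over the list was 0.03, -0.41, -0.25, -0.57 and -0.42 in 21D.del, 82Eb.del, 95Ca.del, 95Cb.del and 95Cc.del, where the median over all tested genes lay between -0.016 and 0.026. emp, an epithelial receptor of this family, had 97.1 to 132.0 CPM in the strains, against 120.0 ± 24.5 CPM in WT.

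Downstream of carotenoid uptake, the retinoid and visual genes were near the limit of detection in larvae. Of 13 genes listed, 4 to 6 passed the filter in a comparison, and ninaA, a chaperone of rhodopsin, had 0 counts in all libraries. ninaE, the main rhodopsin of the adult eye, had 0.119 to 0.347 CPM in the strains and 0.226 CPM in WT. Rh6, a rhodopsin that the larval eye uses as well, had 1.13 to 3.08 CPM in the strains, against 1.85 CPM in WT, with 0 calls. pinta, a retinoid-binding protein gene, was the most abundant, with 29.4, 30.9, 27.5, 49.2 and 21.7 CPM in 21D.del, 82Eb.del, 95Ca.del, 95Cb.del and 95Cc.del, against 55.3 CPM in WT. It fell by 1.32 on the log2 scale in 95Cc.del (adjusted p = 0.00559, edgeR), the list's only call in either direction among 25 tests (1 lower and 0 higher by DESeq2, 7 and 1 at an unadjusted p under 0.05). Without 95Cc.del replicate 2 that call was lost. Of all tested genes 2.73% were called lower in 95Cc.del. With the replicate block, Rh4, an adult rhodopsin, was also lower in 82Eb.del (log2 fold change -1.43, adjusted p = 0.0193), at 0.474 CPM against 1.43 CPM in WT.

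Genes for the uptake of other dietary lipids split into a part that was low with ninaD and a part that was not. Of 19 such genes, 18 were tested, with 28 lower and 0 higher calls among 90 tests by edgeR (30 and 2 by DESeq2, 41 and 4 at an unadjusted p under 0.05). Over all tested genes the edgeR share called lower ran from 0.892% (21D.del) to 5.96% (95Cb.del). Lower in all 5 strains were Npc1b, required for sterol absorption in the midgut, Npc2c and Npc2d, members of a family of sterol-binding proteins, and the lipase gene Lip3. Npc2f and mag, a gastric lipase gene, were lower in all strains except 21D.del. Npc1b had 12.2 ± 3.48 CPM in 21D.del, 4.02 ± 1.17 CPM in 82Eb.del, 3.49 ± 0.849 CPM in 95Ca.del, 5.01 ± 1.37 CPM in 95Cb.del and 7.92 ± 1.96 CPM in 95Cc.del, and 47.4 ± 16.6 CPM in WT. Its log2 fold changes were -1.88, -3.51, -3.66, -3.27 and -2.51 (adjusted p = 0.0274, 0.000552, 0.000471, 0.000484 and 0.00259). In 21D.del the Npc1b call was lost without 21D.del replicate 1 or 3 or any WT library, fits with 0 to 38 lower calls over all genes. mag had 158.0, 75.7, 62.8, 96.7 and 90.8 CPM in the strains in the same order, against 1080 CPM in WT. Its adjusted p in 21D.del was 0.116, and 0.048 without 21D.del replicate 2. With the replicate block, mag and Npc2f passed in 21D.del as well (adjusted p = 0.017 and 0.00254).

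The systemic and intracellular counterparts had no calls. Npc1a, the widely expressed sterol transporter, had log2 fold changes of -0.16 to 0.37 and Npc2a of -0.64 to 0.18. The SE of Npc2a was 0.81 to 1.32, so sizeable changes of it cannot be told from none. Fatp1, also without a call, was lower in every strain, at -0.83 to -0.48 (SE 0.16 to 0.21). apolpp, the lipoprotein that carries lipids through the haemolymph, had -1.06 to 0.58. The list's medians were -0.06, -0.62, -0.17, -0.73 and -0.34 in 21D.del, 82Eb.del, 95Ca.del, 95Cb.del and 95Cc.del. Npc2c, Lip3, Npc1a, Npc2a, Fatp1, apolpp and emp were named after their values were seen. On leaving out a single library the list had 24 to 30 lower calls, and without the 6 libraries that stood apart 31 lower and 4 higher.

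**Figure D5:**
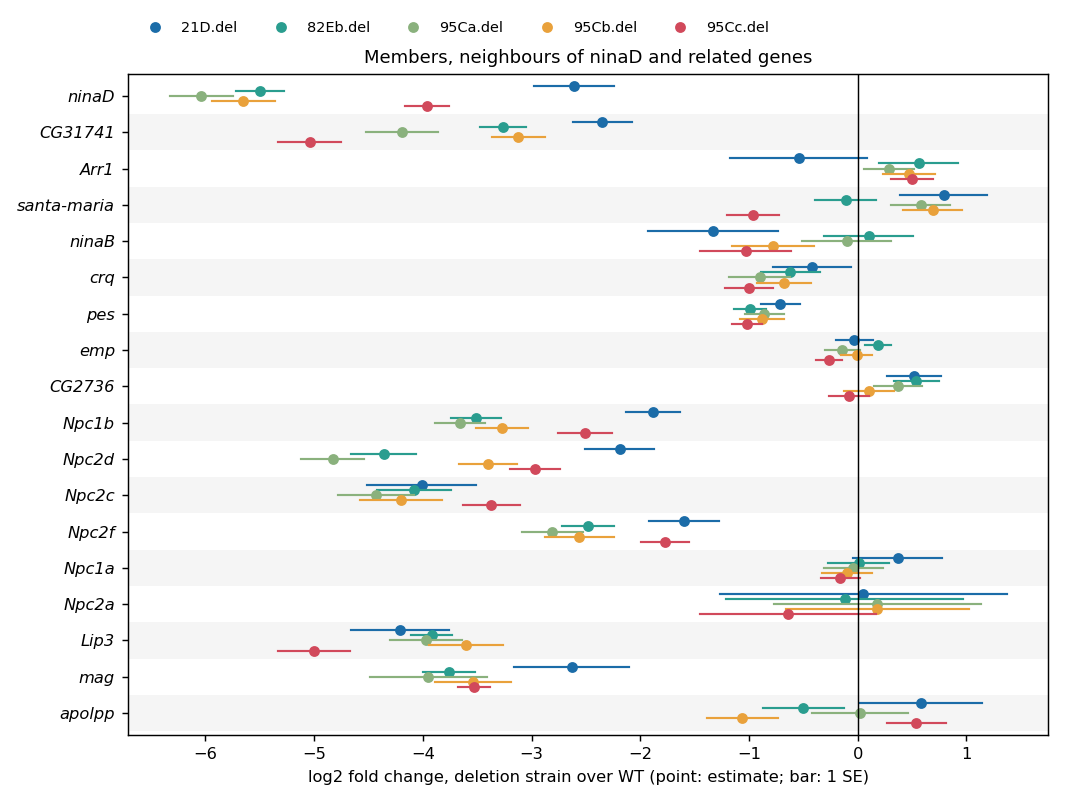
Log2 fold change of each deletion strain over WT (points) with 1 SE (bars) for the 3 carotenoid genes, the neighbours of ninaD, 4 further class B scavenger receptors and 9 lipid uptake and transport genes. ninaD, CG31741, Npc1b, Npc2d, Npc2c, Npc2f, Lip3 and mag lie left of -1 in every strain, whereas santa-maria, Arr1, Npc1a and Npc2a scatter around 0.

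Midgut identity markers, as a sum, were lower in the deletion strains along with ninaD, though most single tests gave no call. The 8 genes of midgut identity and structure summed to 282 to 471 CPM in the deletion libraries, against 568 to 696 CPM in WT, with 12 lower and 0 higher calls among 40 tests (14 and 0 by DESeq2, 25 and 0 at an unadjusted p under 0.05). For this list and the enzymes below, the edgeR share of all tested genes called lower was 0.892% (21D.del) to 5.96% (95Cb.del). Vha100-4, a proton pump subunit, was lower in 5 strains and mex1, a midgut gene, in 4, whereas Myo31DF, a myosin, had log2 fold changes of -0.16 to 0.24 and 0 calls. The list's median was -0.91, -0.89, -1.12, -0.66 and -0.59 in 21D.del, 82Eb.del, 95Ca.del, 95Cb.del and 95Cc.del. On leaving out a single library the count lay between 8 and 12. With the replicate block mex1, GATAe and mesh, each a midgut gene, also passed in 21D.del (adjusted p = 0.00635, 0.02 and 0.0216). Of 8 digestive enzymes, thetaTry, Jon99Ci and Mal-A1 were lower in all strains, with 16 lower and 0 higher calls among 40 tests. The median of these enzymes was -2.39, -3.36, -3.8, -3.22 and -3.54 in the strains in the same order, and thetaTry had log2 fold changes of -3.16, -6.12, -5.16, -4.69 and -4.28. The lower count was 23 with the replicate block, 26 by DESeq2, 26 without WT replicate 2 and 37 without the 6 libraries that stood apart. Over all genes, lower calls per strain numbered 111 to 745 in the main fits. They were 93 to 876 with the block, 287 to 855 by DESeq2, 26 to 722 without WT replicate 2 and 392 to 986 without those 6. The part of midgut tissue in the ninaD values was not tested.

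Neuron and glia markers, tissue in which santa-maria is known to act, summed to 655 to 1100 CPM in the deletion libraries, against 613 to 752 CPM in WT, with 0 lower and 0 higher calls among 40 tests by edgeR and by DESeq2 (0 and 2 at an unadjusted p under 0.05). In 95Cc.del, the strain with the least santa-maria, their sum was 655 to 688 CPM. A single marker, Gs2, named after its values were seen, made up a large part of these sums. Its mean was 294 CPM in 95Cc.del, 613 CPM in 95Cb.del and 319 CPM in WT. Fat body markers had 0 calls in either direction by edgeR (2 lower and 2 higher at an unadjusted p under 0.05, and 0 and 2 by DESeq2). Muscle markers had 5 higher calls by edgeR (9 by DESeq2 and 10 at an unadjusted p under 0.05), 4 of the 5 in 95Cc.del, where their sum was 42700 to 50700 CPM, against 14700 to 22000 CPM in WT. Without WT replicate 1 or 3 that count was 0, and without any single 95Cc.del library it was 1. Over all genes, the higher calls in 95Cc.del fell as well in those fits, from 258 to between 100 and 136. Of all tested genes 2.07% were called higher in 95Cc.del and 0.733% in 82Eb.del by edgeR. Salivary gland glue genes had 2 higher and 0 lower calls among 25 tests by edgeR. Their sum was 21500 to 30700 CPM in 82Eb.del and 24100 to 26000 CPM in 95Cb.del, against 11300 to 19600 CPM in WT. It was 9740 to 13000 CPM in 95Cc.del, and the sums of 21D.del and 95Ca.del overlapped WT. The part of tissue shares in the santa-maria values was not tested.

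The genes whose pattern was most like that of ninaD were other genes with their highest mean in WT. Over 18 libraries and 13095 genes, the highest Pearson correlations of log2 CPM with ninaD were 0.987 for Npc1b, 0.985 for CG7968, 0.971 for CG32483 and CG6296, and 0.970 for Dgat2, a diacylglycerol acyltransferase gene. Since libraries of a group share their genotype and much of their spread, these values describe the libraries only. Over the 6 group means the correlations of these 5 genes were 0.98 to 0.994, and within groups they were 0.724, 0.497, 0.269, 0.552 and 0.658. For santa-maria the highest were 0.954 for Atg7, an autophagy enzyme gene, 0.943 for Dtg, 0.936 for SPoCk, a calcium pump gene, 0.933 for Dyrk2, a kinase gene, and 0.932 for CG16727, with 0.875 to 0.966 within groups. ninaD and santa-maria had -0.107 with each other over all libraries but 0.86 within groups. For ninaB, whose counts are too sparse for a pattern, the highest were Gmppa (0.829), Usp8 (0.814), eIF3l (0.813), HPS1 (0.805) and wda (0.786).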

How the data were processed

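Per the labels, strand-specific libraries of rRNA-depleted total RNA were sequenced. The authors trimmed the reads (Trimmomatic 0.39 and cutadapt 1.15 in the submitters' processing notes), aligned them to dm6 (HISAT2) and summarised them over genes (featureCounts). The deposited table holds raw counts. How strand and reads with several alignments were handled is not given in the sources used here.

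CPM are counts scaled to the library total. Each strain was compared with WT, and each pair of strains with each other, in a separate edgeR 4.0.16 fit (in R 4.3.3). Genes were kept by filterByExpr with the groups and its minimum count of 10 and total of 15, libraries were scaled by TMM, and the quasi-likelihood F test was used with Benjamini-Hochberg adjustment over all tested genes. A call needed an adjusted p under 0.05 and a log2 fold change beyond 1 in size. The SE is the log2 fold change divided by the square root of F. Log2 CPM used a prior count of 2. Gene symbols came from a table of FlyBase identifiers, and transcripts and neighbours from Ensembl 115 gene models, whose coordinates for the 3 genes equal those of the files.

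The members and gene lists were chosen with earlier results of these data known, on values of the same 18 libraries, so values of the members between strains, for which a test had been planned, are given without p. Named genes were the members, the U1 genes, the 5 genes most like each member, and list genes called in 3 or more strains (at most 4 by mean CPM, failing that the 2 with the highest mean CPM). Others are marked in the text as named after their values were seen or because a count of calls consists of them. Alternatives were library totals, RLE factors, no filter, DESeq2 1.42.0, a single fit over all groups, the replicate number as a block, fewer libraries, and leaving out each library. Equal replicate numbers counted as pairs where, over 13096 genes, deviations from group means correlated above 0.1 for each of the 3 numbers. This held for 21D.del and WT (0.65, 0.84 and 0.69), 82Eb.del and WT (0.65, 0.84 and 0.65), 21D.del and 82Eb.del, 95Ca.del and 95Cc.del, and 95Cb.del and 95Cc.del, and rests on this check alone. In each of these contrasts the library that stood apart has the same number in both groups. The check therefore cannot tell pairing from an outlying library that shares its number. Scripts were tested on simulated counts.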

Additional observations from a re-analysis of the deposited data

How the results depend on the processing

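The ninaD decrease against WT kept its direction in all 5 strains under every alternative run, and its side of the thresholds in all but 21D.del. There the call was lost with libraries scaled by their totals alone (-2.66), without 21D.del replicate 1 or 3 and without any single WT library. In these fits 0 to 86 of all tested genes were lower past the thresholds, in place of 111. Leaving out 1 library gave -3.06 to -2.39 in 21D.del, -5.59 to -5.30 in 82Eb.del, -6.27 to -5.84 in 95Ca.del, -5.85 to -5.44 in 95Cb.del and -4.05 to -3.78 in 95Cc.del. ninaD passed in 3 of 10 pairs of strains when libraries were scaled by their totals alone, in 3 to 6 on leaving out 1 library (3 without 21D.del replicate 1 or 3), in 4 with replicates 1 and 3, in 6 without the 6 libraries that stood apart, in 7 by DESeq2, in 7 in a single fit over all groups, and in 5 as reported, with RLE factors and without the filter. With the replicate number as a block it passed in 4, since 21D.del over 95Cb.del, a pair that did not meet the pairing check, was lost. Among contrasts that met this check the block changed no call of a member. Calls over all genes moved with the setting too. For 21D.del over 95Ca.del 1 gene was higher as reported, 0 with library totals, 89 by DESeq2 and 137 in a single fit over all groups. santa-maria changed no call against WT.

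The value of ninaB against WT also moved. In 82Eb.del it was -0.41 with replicates 1 and 3 and -0.41 without the 6 libraries that stood apart. Without those 6 it was -0.44 in 95Ca.del and -1.10 in 95Cb.del, and with replicates 1 and 3 -1.47 in 95Cc.del. Leaving out 1 library gave -1.83 to -0.91 in 21D.del, -0.96 to -0.51 in 95Cb.del and -1.31 to -0.73 in 95Cc.del. Lower calls of class B receptors numbered 4 to 8 and of retinoid genes 0 to 1 on leaving out 1 library. Retinoid genes had 2 with the replicate block and 2 with replicates 1 and 3. The cause was not tested.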

Other observations

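Ranked by log2 fold change among all genes lower past the thresholds, ninaD stood at 66 of 111 in 21D.del, 30 of 472 in 82Eb.del, 8 of 313 in 95Ca.del, 18 of 745 in 95Cb.del and 29 of 340 in 95Cc.del. Among the called genes with at least 50 CPM in WT it stood at 27 of 47, 9 of 167, 1 of 127, 2 of 193 and 12 of 149 in the same order. These ranks describe the values that chose the gene.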
